A study of Mus musculus with 2 samples.

Results

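The 8 chemokine receptor genes Cxcr3, Cxcr6, Ccr2, Cxcr4, Ccr8, Ccr4, Ccr10 and Ccr9 were described in CD8 T cells of the mouse mammary gland. They were taken by gene symbol from the 32285 genes counted in each library. The parous library came from C57BL/6 females that had been through several pregnancies, and the virgin library from C57BL/6 females that had not. Each group was 1 single-cell library of untreated cells, pooled from at least 5 mice, so no difference below has a replicate and no test was made. Live cells positive for CD45, the T cell receptor beta chain and CD8a had been sorted from the fourth mammary fat pad, and RNA was read from its 5-prime end. The series asked how pregnancy changes the T cells that reside in the gland. Animals were pooled within a library, so a pattern carried by 1 mouse cannot be told apart from one shared by all.

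Chemokine receptors are G protein-coupled receptors on the cell surface that read gradients of chemokines and turn on the integrins that let a T cell leave the blood, enter a tissue or stay at one place within it. Naive T cells carry Ccr7, which takes them to lymph nodes. Activated and memory CD8 T cells exchange it for receptors such as Cxcr3, which reads the interferon-induced chemokines Cxcl9 and Cxcl10, and Cxcr6, which reads Cxcl16 and is a usual marker of resident memory cells.

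The cells that passed the filters were 2994 parous and 2502 virgin CD8 T cells, with 13289728 and 19944371 UMIs (molecule barcodes, so that each counts 1 RNA molecule once) and medians of 4107 and 7002 UMIs per cell. Cd3e RNA was in 95.1% of parous and 98.4% of virgin cells, Cd8a in 76.7% and 87.0%, and Cd4 in 0.367% and 0.0799%. The libraries shared 14 cell barcodes among these and the few other cells kept. Since depth differed, levels are given as CPM (counts per 1e6 UMIs of the same cells), and shares of cells after thinning every cell to 1400 UMIs, which 2869 parous and 2488 virgin cells reached. Intervals are exact at 95%, by Poisson for levels, by Clopper-Pearson for shares and by the conditional method for ratios. They take in counting error alone. A log2 ratio is parous over virgin with 0.5 added to each count, and a gene was called at a ratio of at least 1.5-fold. The median log2 ratio was -0.13 over the genes that reached 10 UMIs in both libraries, so the typical gene sat slightly below 0. A ratio near that median, or between it and 0, carries no clear direction.

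The 4 common receptors were Cxcr3, Cxcr6, Cxcr4 and Ccr2, and the other 4 were rare. Cxcr6 was higher in the parous library, Cxcr3, Ccr2, Cxcr4 and Ccr9 were higher in the virgin library, and the intervals of Ccr4 and Ccr10 included equal levels. Of the 8 receptors 0 were called higher, against 7.17% of the 13248 genes tested, and 2 were called lower, Cxcr4 and Ccr9, against 17.4%. In either direction 24.5% of all genes tested were called, so the count of called receptors did not stand apart from the background. The calls moved with the setting. Under median-of-ratios scaling Ccr4 was called higher (log2 ratio 0.61) and only Ccr9 lower, where 9.07% of all genes were called higher and 13.0% lower. With equal weight for every cell Ccr4 was called higher (0.82) and Ccr2, Cxcr4 and Ccr9 lower (Ccr2 at -0.67).

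**Figure D1:**
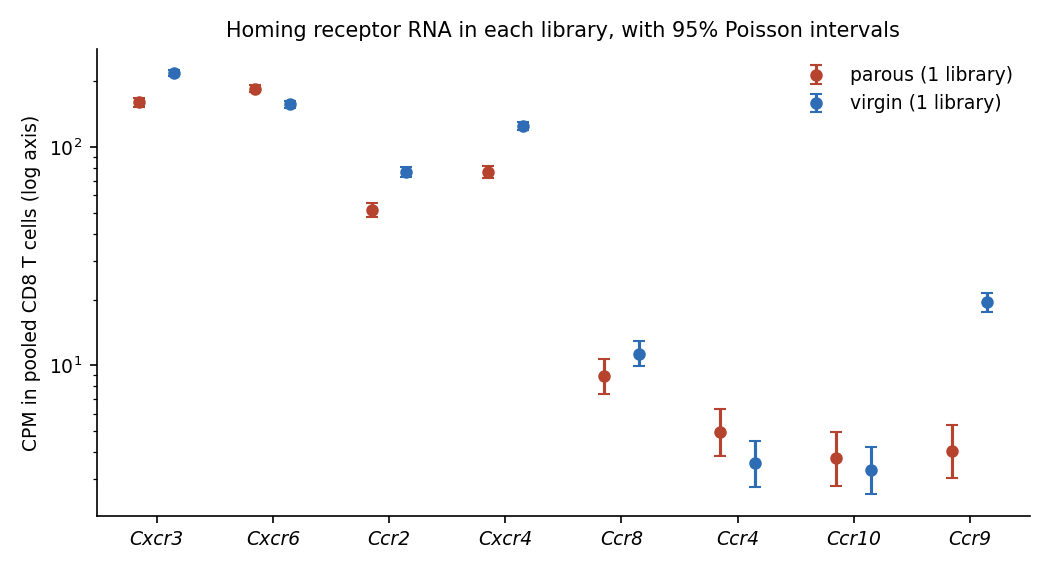
Level of each receptor in the pooled CD8 T cells of the parous and the virgin library, in CPM on a log axis, with points for the 2 libraries and bars for exact 95% Poisson intervals. Ccr9 shows the widest gap, with 4.06 CPM (parous) against 19.4 CPM (virgin), and Cxcr6 is the only common receptor whose parous point lies above the virgin one.

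Cxcr3 (ENSMUSG00000050232, GRCm38 chromosome X, 101731535 to 101734269, minus strand) stood at 159.9 CPM (interval 153 to 167) in the parous and 218 CPM (211 to 224) in the virgin library, a log2 ratio of -0.45. It was found in 18.6% of parous cells (17.2 to 20.1%) and 23.4% of virgin cells (21.7 to 25.1%) at 1400 UMIs, and in 38.6% and 48.0% without thinning. Naive or central memory-like cells had it in 0.837% (parous) and 1.22% (virgin) at the same 1400 UMIs, with medians of 4542 and 7390 UMIs per cell before thinning. These shares may hold true expression and are not a measured background. The shares in all cells lay far above them in both libraries.

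Cxcr6 (ENSMUSG00000048521, chromosome 9, 123806475 to 123811760, plus strand) stood at 185 CPM (178 to 193) in the parous and 157 CPM (151 to 162) in the virgin library, a log2 ratio of 0.24. It was found in 21.8% of parous cells (20.3 to 23.4%) and 16.5% of virgin cells (15.1 to 18.0%) at 1400 UMIs. Without thinning the shares were 39.8% and 40.8%, so the difference in shares showed only at matched depth.

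Ccr2 (ENSMUSG00000049103, chromosome 9, 124101950 to 124113557, plus strand), the receptor for Ccl2 that takes cells into inflamed tissue, stood at 51.5 CPM (47.7 to 55.5) in the parous and 76.9 CPM (73.1 to 80.9) in the virgin library, a log2 ratio of -0.58. Thinned to 1400 UMIs, 5.44% of parous cells and 8.84% of virgin cells had it, and without thinning 13.7% and 23.3%. Naive or central memory-like cells had it in 1 of 478 parous and 0 of 987 virgin cells, so it was nearly free of background.

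Cxcr4 (ENSMUSG00000045382, chromosome 1, 128588199 to 128592293, minus strand) reads Cxcl12, which draws cells to the marrow and to perivascular sites. It stood at 76.5 CPM (71.9 to 81.4) in the parous and 125 CPM (119.8 to 129.7) in the virgin library, 1.63-fold lower in the parous library (log2 ratio -0.70). The log2 ratio was -0.57 under median-of-ratios scaling and -0.55 without clusters 4 and 6 (described with the clusters), both inside 1.5-fold. At 1400 UMIs it was found in 9.79% of parous cells (8.73 to 10.9%) and 15% of virgin cells (13.6 to 16.5%), and without thinning in 24.1% and 47.5%. Cxcr4 RNA can change while cells are handled, and 14 immediate-early and heat shock genes, listed after the data were seen, summed to 8298 CPM in parous cells and 8335 CPM in virgin cells. Of the 14, 1 was called higher and 2 lower, and their part in the Cxcr4 result was not tested.

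The rare receptors followed. Ccr8 (ENSMUSG00000042262, chromosome 9, 120092114 to 120094906, plus strand), which reads Ccl1 in mice and is known from skin T cells and regulatory T cells, had 119 UMIs in 59 parous cells and 226 UMIs in 88 virgin cells, or 8.95 and 11.3 CPM. Ccr4 (ENSMUSG00000047898, chromosome 9, 114490316 to 114504916, minus strand), a receptor for Ccl17 and Ccl22 used in homing to skin, had 66 UMIs in 40 parous cells and 71 UMIs in 45 virgin cells, or 4.97 and 3.56 CPM. Ccr10 (ENSMUSG00000044052, chromosome 11, 101172997 to 101175443, minus strand), which reads Ccl27 and Ccl28 at skin and mucosal epithelia, had 50 UMIs in 25 parous cells and 66 UMIs in 16 virgin cells, or 3.76 and 3.31 CPM. None of these 3 was called between the libraries. Ccr4 did pass 1.5-fold in 3 of the alternative settings, at 0.61, 0.82 and, without clusters 4 and 6, 0.68, while its interval of -0.03 to 0.98 included 0. The 5 cells with most Ccr10 UMIs held 38.0% of its parous and 62.1% of its virgin UMIs, and without those cells its log2 ratio was 0.89, against 0.19 with them.

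Ccr9 (ENSMUSG00000029530, chromosome 9, 123678439 to 123784330, plus strand), the receptor for Ccl25 that serves homing to the gut and the thymus, differed most. It had 54 UMIs in 45 parous cells and 387 UMIs in 244 virgin cells, or 4.06 CPM (3.05 to 5.30) and 19.4 CPM (17.5 to 21.4), a log2 ratio of -2.24 (-2.69 to -1.84). Thinned to 1400 UMIs, 0.558% of parous cells and 2.65% of virgin cells had it, and 1.5% and 9.75% without thinning. Its gene overlaps Gm17200 on the same strand, whose transcripts share 220 words of 50 bases with it, so a part of these counts is uncertain.

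At 1400 UMIs the thinned shares of the other rare receptors were 1.12% (parous) and 1.05% (virgin) for Ccr8 (1.97% and 3.52% without thinning) and 0.453% and 0.362% for Ccr10 (0.835% and 0.639%). For Ccr4 the 1 random thinning left 17 parous and 3 virgin cells, 0.593% and 0.121%. The expected shares over all thinnings were 0.648% and 0.404%, and without thinning the shares were 1.34% and 1.80%. The order of the libraries for Ccr4 turned only without thinning, where depth was not matched. The counts are few and the interval of its pooled ratio included equal levels, so no pooled direction is given for it.

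The cells fell into 12 clusters, numbered 0 to 11 by their size. No chemokine receptor was used in the clustering, so receptor levels by cluster were not set by it, although genes that move with a receptor were used. Clusters that met the marker rule were naive or central memory-like (0), Helios and Ly49-positive-like (3), Gzmk or exhausted-like (4), tissue-resident memory-like (5, led by Car2, Cdh1 and Qpct, and 8, with P2rx7 and Zfp683), circulating effector-like (7), cycling (9) and interferon-responding (11). Cluster 1 (led by Ier3, Ccl3 and Rasgef1b), cluster 2 (led by Gzmm, Dipk2a and Gm35037), cluster 6 (led by Gzmc, Fcer1g and Klrb1a) and cluster 10 (little RNA) stayed unnamed. Clusters 4 and 6 took up 23.4% of the parous cells but 0.879% of the virgin cells, and whether they are a cell type or a trait of that library cannot be told apart here.

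**Figure D2:**
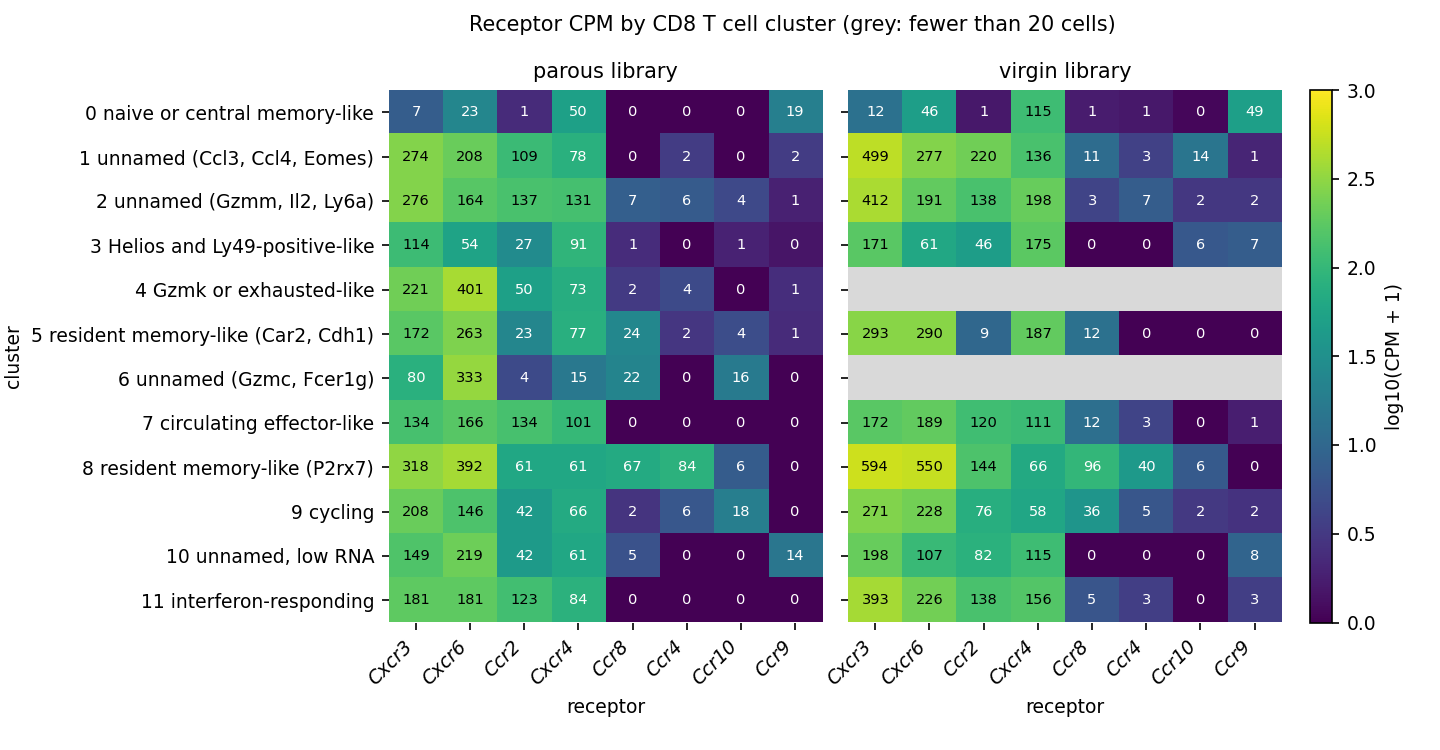
Level of the 8 receptors in each cluster of the parous (left) and the virgin (right) library, in CPM written in each cell and coloured by log10(CPM + 1), with clusters of fewer than 20 cells in grey. Ccr9 is highest in cluster 0, Ccr4 and Ccr8 in cluster 8, and cluster 6 shows Cxcr6 at 333 CPM beside Ccr2 at 3.76 CPM and Cxcr4 at 15 CPM.

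Cxcr3 and Cxcr6 were both highest, or level with the highest, in cluster 8, and lowest in the naive or central memory-like cluster. Cxcr3 stood there at 318 CPM in parous and 594 CPM in virgin cells, and in cluster 0 at 6.64 and 12.0 CPM. Among parous clusters its next levels, 276 CPM in cluster 2 and 274 CPM in cluster 1, had intervals that overlapped that of cluster 8, while among the virgin clusters of at least 50 cells the first 4 in order (8, 1, 2 and 9) were all set apart by their intervals. Cxcr6 stood in cluster 8 at 392 CPM in parous and 549.9 CPM in virgin cells, and among parous clusters its 3 highest levels, 401 CPM in cluster 4, 392 CPM in cluster 8 and 333 CPM in cluster 6, overlapped in their intervals in that order.

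Naive or central memory-like cells still carried some Cxcr6, with 51 UMIs and 22.6 CPM in parous and 341 UMIs and 46.5 CPM in virgin cells. Of these cells, 2.51% (parous) and 6.28% (virgin) had it at 1400 UMIs. The ratio of the receptors to each other was not that of all cells: in the virgin library Cxcr6 had 341 UMIs against 88 of Cxcr3 in cluster 0, but 3127 against 4343 over all CD8 T cells.

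Cxcr6 was the common receptor whose pooled and standardised ratios differed in direction. Pooled, it was higher in the parous library by a log2 ratio of 0.24 (0.16 to 0.32). Within each of the 7 clusters with at least 50 cells in each library its log2 ratio was below 0, from -0.17 in cluster 7 to -1.03 in cluster 0, and the whole interval lay below 0 in 5 of them. Relative to the median of all genes in each cluster it stayed below 0 in all 7, but only at -0.09 in cluster 2 and -0.03 in cluster 3. With equal weights for both libraries over the 10 clusters other than 4 and 6, the level was 134 CPM in parous and 168 CPM in virgin cells. That gave a standardised log2 ratio of -0.33 (-0.44 to -0.23). Without clusters 4 and 6 the pooled ratio was -0.15, close to the median of -0.13 over all genes, so it carries no clear direction. Parous cells held 21.9% of their Cxcr6 UMIs in cluster 4 and 18.0% in cluster 6, and virgin cells 1.76% and 0.128%.

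Cxcr3 went the same way within clusters as in the pool. Its log2 ratio was below 0 in 7 of 7 clusters, from -0.35 to -0.90, and the standardised levels were 150.2 CPM in parous and 245 CPM in virgin cells, a ratio of -0.71 (-0.80 to -0.61). It was called lower in 3 clusters (0, 1 and 8) and Cxcr6 in 2 (0 and 9). Of all genes tested, those called lower were 19.4% in cluster 0, 20.4% in cluster 1, 15.9% in cluster 2, 18.8% in cluster 3, 23.5% in cluster 7, 23.3% in cluster 8 and 21.3% in cluster 9. Those called higher were 4.56%, 5.53%, 5.72%, 5.67%, 10.7%, 10.6% and 12.0% in the same order, and neither Cxcr3 nor Cxcr6 was called higher in any. The median log2 ratio of all genes lay between -0.15 (cluster 3) and 0.06 (cluster 7), and relative to the median of each cluster Cxcr3 was still called in 3 and Cxcr6 in 2.

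**Figure D3:**
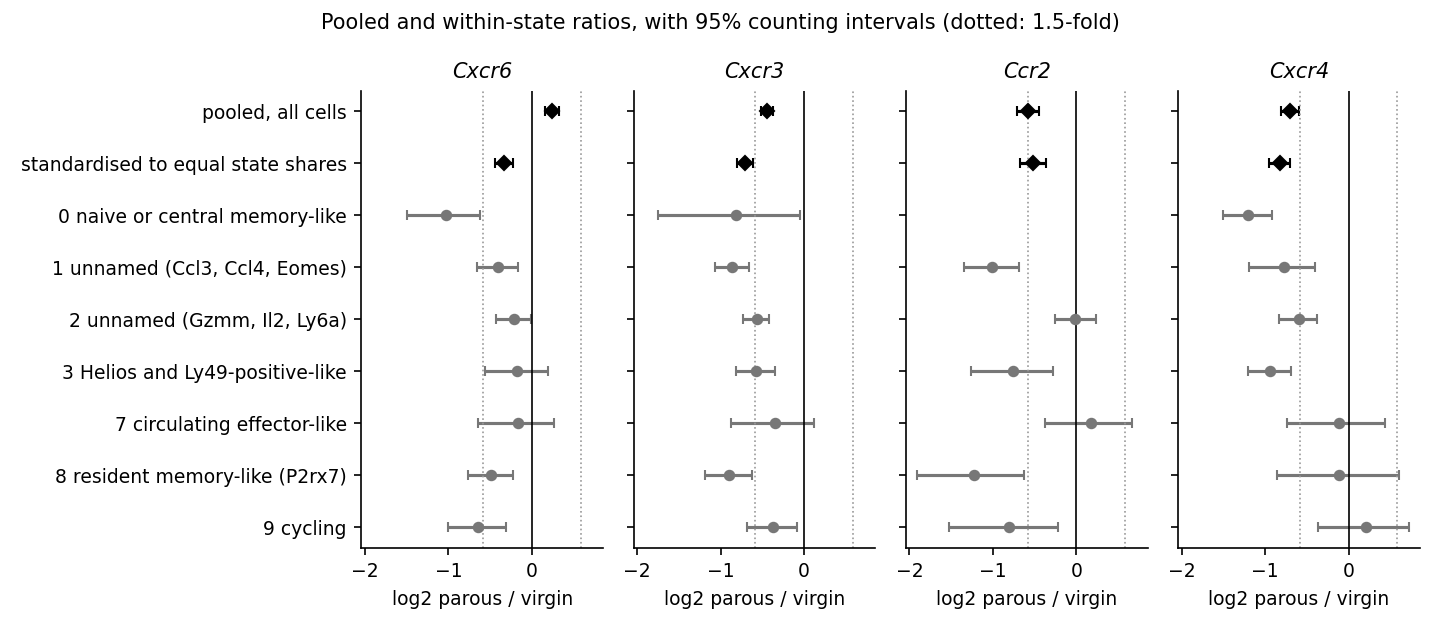
Log2 ratios of parous over virgin for Cxcr6, Cxcr3, Ccr2 and Cxcr4, pooled over all CD8 T cells and standardised (black diamonds) and within each cluster of at least 50 cells per library (grey points), with exact 95% counting intervals and approximate ones for the standardised ratios. For Cxcr6 the pooled value of 0.24 lies right of 0 while the standardised value of -0.33 and all 7 within-cluster values lie left of it.

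Ccr2 and Cxcr4 were lower in parous cells within some clusters and level in others. Ccr2 was highest in cluster 1 among virgin clusters, at 109 CPM in parous and 220.3 CPM in virgin cells, a log2 ratio of -1.01 (-1.35 to -0.69). In cluster 2 it stood at 137 and 138 CPM, and in cluster 7 at 134 and 120.1 CPM. It was called lower in 4 of the 6 clusters with enough UMIs (1, 3, 8 and 9), and the standardised ratio was -0.52. In cluster 6 it had 5 UMIs in 318 parous cells, 3.76 CPM.

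Cxcr4 was called lower in 4 of 7 clusters (0, 1, 2 and 3), by log2 ratios of -1.20, -0.78, -0.60 and -0.94. Relative to the median of all genes in each cluster it was called in 3. In cluster 0 it stood at 50 CPM (41.2 to 60.1) in parous and 115 CPM (107 to 123) in virgin cells. There the handling genes summed to 7103 CPM in parous and 7991 CPM in virgin cells, a log2 ratio of -0.17, with 4 of the 14 called lower. In the circulating effector-like, P2rx7 and cycling clusters (7, 8 and 9) the intervals of the Cxcr4 ratio included 0. The standardised levels were 77.4 CPM in parous and 137 CPM in virgin cells, a ratio of -0.82 (-0.95 to -0.70).

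The unnamed cluster 6 combined much Cxcr6 with little Cxcr4 and Ccr2. It met 9 of the resident markers by the 2-fold rule, but none stood among its 10 leading genes, where 2 markers of the NK or innate-like T list did. Its Cxcr6 level of 333 CPM (302 to 365) in parous cells lay beside 263 CPM (238 to 291) in parous cluster 5. Cxcr4, at 15 CPM (9.19 to 23.2), was lower than in every other parous cluster of at least 50 cells, the next being 50 CPM (41.2 to 60.1) in cluster 0. Cxcr3, at 79.7 CPM (65.3 to 96.4), was above only cluster 0. The 3 virgin cells of this cluster allow no comparison between libraries.

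Ccr9 belonged to naive or central memory-like cells. Cluster 0 held 77.8% of its parous and 92.5% of its virgin UMIs, with 18.6 CPM (13.4 to 25.1) in parous and 48.8 CPM (43.9 to 54.2) in virgin cells, a log2 ratio of -1.38 (-1.89 to -0.93). Of the cells of this cluster, 2.72% (parous) and 6.48% (virgin) had it at 1400 UMIs. Ccr7 in the same cluster was not lower in parous cells, at 1292 CPM in parous and 1137 CPM in virgin cells. The cluster made up 16.2% of parous and 39.4% of virgin cells, and the standardised Ccr9 ratio, with equal cluster shares, was -1.28 against -2.24 pooled.

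Ccr4 and Ccr8 both had their highest level in cluster 8. Ccr4 stood there at 84.4 CPM (60 to 115) in parous and 39.8 CPM (26.0 to 58.3) in virgin cells, and the next highest level was 6.19 CPM in parous and 6.76 CPM in virgin cluster 2. The log2 ratio of Ccr4 within cluster 8 was 1.07 (0.33 to 1.86), called higher, as were 10.6% of genes tested there, on 39 parous and 26 virgin UMIs. Ccr8 stood in the same cluster at 67.1 CPM (45.6 to 95.2) in parous and 96.5 CPM (74.1 to 123) in virgin cells, a ratio whose interval included 0. Outside cluster 8, Ccr8 was called lower in cluster 1 (0 parous and 30 virgin UMIs), cluster 7 (0 and 15) and cluster 9 (1.84 and 35.5 CPM), and higher in cluster 2 on 16 parous and 6 virgin UMIs, with an interval that included 0. Its standardised log2 ratio was -0.70 (-1.14 to -0.27). Cd40lg, a CD4 T cell marker, was among the 10 leading genes of cluster 8. Cd4 itself stood at 1.58 CPM in all parous and 0.201 CPM in all virgin CD8 T cells. Cd4 was found in 0.367% of all parous and 0.0799% of all virgin cells, while cluster 8 made up 4.41% and 4.12% of them. Most cells of cluster 8 therefore had no Cd4 UMI, but the level of Cd4 in that cluster was not measured. Among cells of cluster 8 without thinning, Ccr4 was found in 6 of 14 Ccr8-positive parous cells and 2 of 17 Ccr8-positive virgin cells, against 14.4% of the other parous and 15.1% of the other virgin cells of the cluster.

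The windows of 250 bases before the RefSeq start (GRCm38.p6) of these 2 receptors, and of Cxcr6 and Ccr9, neighbours on chromosome 9 with opposite levels over the clusters, are printed because the first pair peaked in the same cluster and the second did not. Capitals mark matches, on either strand, to 5 motifs. They were TGANTCA for AP-1 factors, TGTGGT for RUNX factors, GGTGTG for T-box factors, AGATAA for GATA factors and TTCNNNGAA for STAT factors.
Ccr4, chr9:114496545-114496794, minus strand: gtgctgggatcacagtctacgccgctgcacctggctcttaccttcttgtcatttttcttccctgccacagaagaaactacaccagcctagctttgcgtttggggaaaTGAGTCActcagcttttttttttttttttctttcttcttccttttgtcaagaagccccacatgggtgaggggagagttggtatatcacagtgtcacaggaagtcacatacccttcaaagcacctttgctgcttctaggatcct
Ccr8, chr9:120091883-120092132, plus strand: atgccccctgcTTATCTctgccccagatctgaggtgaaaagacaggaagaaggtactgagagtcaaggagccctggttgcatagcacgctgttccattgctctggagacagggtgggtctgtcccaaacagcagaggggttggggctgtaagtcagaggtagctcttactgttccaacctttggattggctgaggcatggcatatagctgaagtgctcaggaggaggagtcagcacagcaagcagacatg
Cxcr6, chr9:123806227-123806476, plus strand: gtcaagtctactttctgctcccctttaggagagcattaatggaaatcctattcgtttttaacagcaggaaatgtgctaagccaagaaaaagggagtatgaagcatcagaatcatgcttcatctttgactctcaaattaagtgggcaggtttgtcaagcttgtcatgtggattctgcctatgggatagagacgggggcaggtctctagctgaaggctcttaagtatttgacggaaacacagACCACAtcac
Ccr9, chr9:123766961-123767210, plus strand: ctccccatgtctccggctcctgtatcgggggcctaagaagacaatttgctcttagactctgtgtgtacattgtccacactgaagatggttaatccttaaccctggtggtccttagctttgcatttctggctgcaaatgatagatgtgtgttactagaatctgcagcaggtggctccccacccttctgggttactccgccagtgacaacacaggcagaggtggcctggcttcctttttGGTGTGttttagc
Each window held a match to 1 motif, no match overlapped another, and no motif was shared by any pair. The Ccr4 window held TGAGTCA, a form that 6.75% of 32851 RefSeq windows of the same length matched, and the Cxcr6 window ACCACA, the reverse strand of the RUNX motif, which 14.0% matched. The Ccr8 window held a GATA match (9.99% of windows) and the Ccr9 window a T-box match (16.3%), while none held the STAT motif (7.02%). Matches at such rates describe the letters only.

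Ccr8-positive cells lay mostly in different clusters in the 2 libraries. Of the 59 parous cells, 17 lay in cluster 5, 14 in cluster 6, 14 in cluster 8 and 1 among cycling cells. Of the 88 virgin cells, 40 lay in the cycling cluster, 17 in cluster 8 and 9 in the circulating effector-like cluster. Clusters 5 and 6 had only 45 and 3 virgin cells in all, which limits how many virgin Ccr8-positive cells could lie there. Virgin Ccr8-positive cells were deep, with a median of 11400.5 UMIs against 6942 in the other virgin cells, while the parous medians were 4325 and 4104, so other genes were read at 1400 UMIs per cell.

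At that depth Itgae, which codes for the CD103 chain of the receptor for E-cadherin, was found in 19 of 59 Ccr8-positive parous cells (32.2%) and 6 of 88 virgin ones (6.82%), against 9.18% of other parous and 2.79% of other virgin cells. Itga1, a collagen-binding integrin chain, was found in 32.2% of Ccr8-positive parous and 15.9% of virgin cells, against 8.72% and 3.25% of the others. Klrg1, a marker of effector cells that circulate, went the opposite way. It was found in 0 of 59 Ccr8-positive parous cells, where 2.88% of other parous cells had it, and in 25 of 88 virgin ones (28.4%), where 6.75% of others had it. The interval of the 0 of 59 reaches 6.06%.

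T cell receptor segments set these cells apart as well. A Trbv gene was assigned in 77 of the 88 virgin Ccr8-positive cells, and 33 of them (42.9%) carried Trbv31, which 8.29% of all assigned virgin cells carried. All 33 had a Klrg1 UMI without thinning and 0 had an Itgae UMI, and 24 of them lay in the cycling cluster. Without thinning, 18.5% (13.1 to 25.0%) of 178 virgin Trbv31 cells were Ccr8-positive, against 2.23% (1.63 to 2.99%) of 1970 cells with other segments. Of these Trbv31 cells 54 lay in the deep cycling cluster (virgin median 17910 UMIs). There 24 of the 54 were Ccr8-positive, against 35 of all 134 assigned virgin cells, these 54 among them. The parous library was read less deeply and had 60 cycling cells. In it 0 of 123 Trbv31 cells were Ccr8-positive, with an interval up to 2.95%. There the most common segment of Ccr8-positive cells was Trbv12-1, in 12 of 45 assigned cells, against 6.26% of all assigned parous cells.

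Ccr10-positive cells also lay mostly in different clusters in the 2 libraries. Of the 25 parous Ccr10-positive cells 13 lay in cluster 6, and of the 16 virgin ones 10 lay in cluster 1, where parous cells had 0 UMIs. Cluster 6 had 318 parous but only 3 virgin cells, so virgin Ccr10-positive cells could hardly lie there. The virgin level in cluster 1 was 13.7 CPM, and the interval of the log2 ratio reached up to -1.53. The 39 virgin UMIs there came from 10 cells. At 1400 UMIs, 0 of 224 parous and 5 of 504 virgin cells of cluster 1 had Ccr10, with intervals that overlapped (0 to 1.63% and 0.323 to 2.30%). In the cycling cluster Ccr10 stood at 18.4 CPM in parous and 2.13 CPM in virgin cells, called higher on 10 and 6 UMIs. These came from 4 parous cells and 1 virgin cell, and at 1400 UMIs 1 of 60 parous and 1 of 146 virgin cells there had Ccr10. The standardised log2 ratio of Ccr10 was -0.80 (-1.68 to 0.08) over the 10 clusters other than 4 and 6. Cluster 6, left out there, held 42.0% of the parous Ccr10 UMIs. The pooled ratio was -0.27 over the same 10 clusters and 0.19 over all cells. Trbv12-1 was carried by 9 of the 18 assigned parous Ccr10-positive cells, 6 of them in cluster 6. Of 140 parous Trbv12-1 cells 6.43% (2.98 to 11.9%) were Ccr10-positive, against 0.429% (0.196 to 0.813%) of 2097 cells with other segments. Among the 13 assigned virgin cells the most common segment was Trbv1, in 3. Ccr8 was found at 1400 UMIs in 5 of the 25 parous Ccr10-positive cells, against 0.949% of other parous cells.

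**Figure D4:**
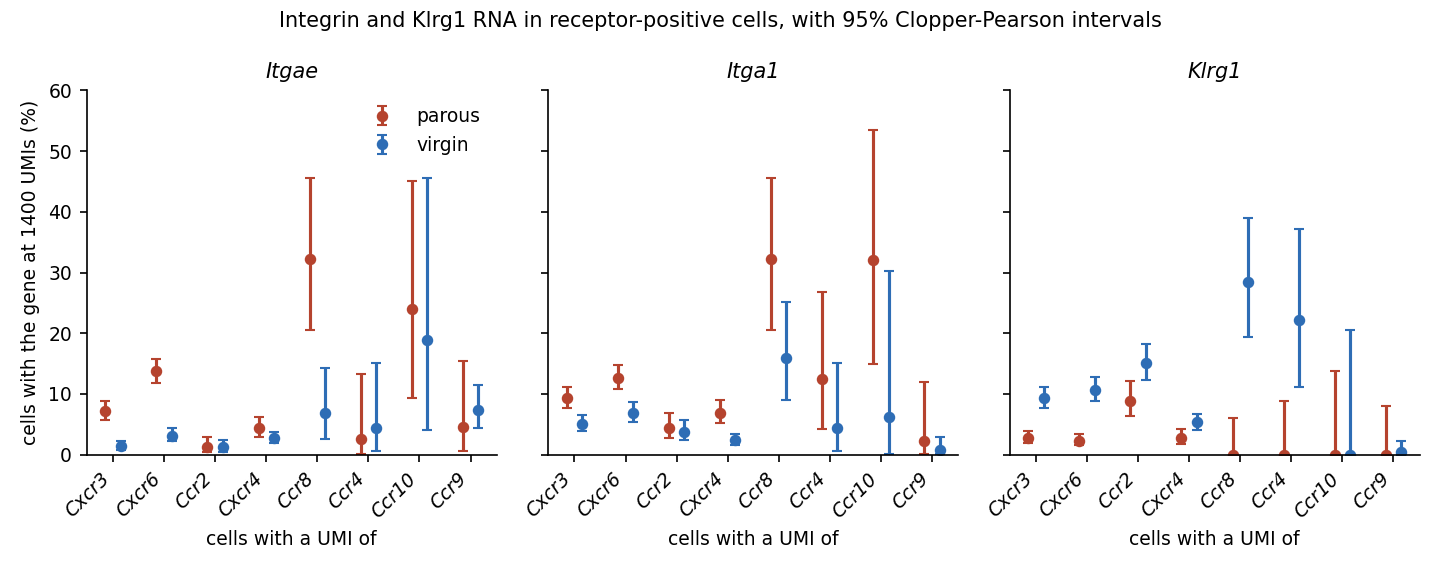
Share of cells with an Itgae, Itga1 or Klrg1 UMI at 1400 UMIs per cell, among cells with a UMI of each receptor at full depth, in the parous (left of each pair) and the virgin library, with exact 95% Clopper-Pearson intervals. Among Ccr8-positive cells Itgae stands at 32.2% in parous and 6.82% in virgin cells and Klrg1 at 0% in parous and 28.4% in virgin cells. These intervals do not overlap, but those of Ccr8-positive cells picked at 1400 UMIs do.

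Among the common receptors, Ccr2 and Itgae were rarely found together. At 1400 UMIs an Itgae UMI was found in 1 of 156 Ccr2-positive parous cells (0.641%) against 10.2% of other parous cells, and in 1 of 220 Ccr2-positive virgin cells (0.455%) against 3.17% of other virgin cells. Cxcr6-positive cells were the reverse in the parous library, with Itgae in 14.2% (11.6 to 17.2%) against 8.38% (7.27 to 9.61%) of other cells. In the virgin library the 2 shares, 3.41% and 2.84%, overlapped in their intervals. Cxcr3-positive cells had Itgae less often than other cells, in 5.07% against 10.7% in the parous and 0.687% against 3.62% in the virgin library.

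Pairs of receptors were found together unevenly. Cxcr3 and Cxcr6 were found together in 151 parous and 180 virgin cells at 1400 UMIs. Of Cxcr6-positive cells 24.1% of parous and 43.8% of virgin ones had Cxcr3, against 17.0% and 19.4% of the other cells. Within clusters, without thinning, the shares were closer. In cluster 8 they were 55.3% against 57.1% in parous and 87.8% against 85.7% in virgin cells, in parous cluster 4 45.8% against 44.5%, and in parous cluster 5 47.8% against 47.6%. In parous clusters 2 and 6 Cxcr6-positive cells had Cxcr3 more often, in 70.5% against 59.5% and in 30.4% against 18.9%. Ccr9 was found with Cxcr3 in 1 of 16 parous and 0 of 66 virgin Ccr9-positive cells. Cells with 2 or more of the 8 receptors were 9.93% (2 receptors) and 1.57% (3 or more) of parous cells, and 12.9% and 3.18% of virgin cells, and the highest number in 1 cell was 5 in each library.

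The genes whose pattern was most like each receptor over 18 cluster-by-library units of at least 50 cells, which share libraries and cells, were ranked by Pearson correlation of log2(CPM + 1). For Cxcr3 they were Lilr4b (0.96), Lilrb4a and Cd44. For Cxcr6 they were Cd38, an ectoenzyme (0.94), Agap2 and H2-Q6, and those of Ccr2 included Cobll1 (0.93) and Dok2 (0.93). Cxcr4 was nearest to Gm2682 (0.85), Ehd3 and Cd5. Ccr8 was nearest to P2rx7, an ATP-gated channel of resident cells (0.87), Sulf2 and Trat1, and Ccr4 to Cd40lg (0.82), Rcbtb2 and Gm14718. Ccr10 was nearest to Srbd1 (0.81), Sppl2b and Mettl26, and Ccr9 to 1700062C10Rik (0.93), Rab3ip and Dpp4. Units and receptors were not independent, and these values only describe these libraries.

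Of the 15 other chemokine receptors listed, 7 had at least 10 UMIs in a library, 2 were called higher and 3 lower, against 7.17% and 17.4% of all genes tested. The lower ones were Cx3cr1, a receptor of circulating effector cells, with 9.71 CPM in parous and 27.6 CPM in virgin cells, Cxcr5, which serves entry to B cell follicles, with 5.19 and 8.77 CPM, and Ccr7, with 328 and 505 CPM, which was not called under median-of-ratios scaling (log2 ratio -0.49). The higher ones were Ccrl2, an atypical receptor, with 13.3 and 8.37 CPM, and Ccr6, on 18 parous and 7 virgin UMIs.

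Of 24 measured genes of receptor signalling, among them the G protein subunit Gnai2 and the migration regulators Dock2 and Rac2, 0 were called in either direction, against 24.5% of all genes tested, with a median log2 ratio of -0.14, against -0.16 over all genes tested. Gnai2 stood at 464 CPM in parous and 515 CPM in virgin cells, and Rac2 at 1589 and 1517 CPM. Under median-of-ratios scaling 2 of the 24 were called higher, the receptor kinase Grk5 (log2 ratio 0.66) and the arrestin Arrb1 (0.61). They were named after their values were seen.

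Of 7 measured ligand genes 1 was called higher and 4 lower, against 7.17% and 17.4% of all genes tested. Their median log2 ratio was -0.82, against -0.16 over all genes, on low counts in T cells. Ccl1, the mouse ligand of Ccr8, had 9 UMIs in 6 parous cells and 501 UMIs in 10 virgin cells, of which 317 came from 1 cell. Ccl2, a ligand of Ccr2, had 0 parous UMIs and 33 virgin UMIs, 28 of them in 1 cell. Ccl27a, whose symbol names 3 rows of the matrix, had 44 parous and 117 virgin UMIs in its counted row. Cxcl12 was higher on 14 parous and 4 virgin UMIs and Cxcl9 lower on 4 and 16. Cxcl10 stood at 31.0 CPM in parous and 24.8 CPM in virgin cells and Ccl25 at 10.8 and 9.18 CPM, neither called.

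Markers of other cell types stayed low in the cells compared. The summed level of 6 myeloid markers was 124 CPM in parous and 115 CPM in virgin cells, that of 5 B cell markers 88.5 and 119.9 CPM and that of 5 CD4 T cell markers 59.8 and 74.4 CPM. The 5 mammary epithelial markers summed to 13.1 CPM in parous and 4.86 CPM in virgin cells, with Krt8 and Krt14 at 0 in both libraries. The 5 gamma-delta T cell markers summed to 30.1 and 11.2 CPM, the 4 endothelial markers to 77.4 and 64.9 CPM, and the 4 fibroblast markers to 7.22 and 21.0 CPM. The part of such RNA in the receptor values was not tested.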

How the data were processed

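Each deposited matrix held unnormalised UMI counts for every gene and cell barcode. Per the file headers the authors' counting program was Cell Ranger 7.0.0, and the submitters' processing notes name mm10, R 4.4.2 and Seurat. The cell-calling settings are not given in the sources used here. Cells were kept with at least 500 genes, 1000 UMIs and under 10% mitochondrial UMIs, which left out 1908 of 4927 parous and 15 of 2526 virgin barcodes. Scrublet in scanpy 1.11.5 marked 2 parous and 11 virgin cells, under 0.5%, was taken not to have worked, and its calls were kept as cells, so doublets were not removed. A further 25 parous and 9 virgin cells of a myeloid cluster were left out.

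For clustering, virgin UMIs were thinned to 58.7%. T cell receptor, immunoglobulin, ribosomal, mitochondrial and chemokine receptor genes were left out, and 2000 variable genes, 30 components, 15 neighbours and Leiden resolution 0.8 were used. A cluster was named with at least 3 markers 2-fold above other cells, unless another type had more markers among the cluster's 10 leading genes. Standardised ratios weighted 10 clusters by their mean share and left out clusters 4 and 6, which had fewer than 20 virgin cells. A Trbv gene needed 2 UMIs and 66.7% of the cell's Trbv UMIs. Positions came from GENCODE mouse release 21, promoter windows from RefSeq, which held 7 of the 8 receptors. Named were all 8 receptors, list genes at least 1.5-fold apart with 30 UMIs, Ccr7, Cx3cr1 and, per receptor, the 3 genes of most like pattern, and some genes that this rule names are not reported here. Ccr6, Cxcl12, Cxcl9, Cxcl10, Ccl25, Gnai2, Dock2 and Rac2 were added after their values were seen. The receptors, gene lists and markers were chosen with earlier results of these data known. The ratio and thinning code was checked on simulated data.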

Additional observations from a re-analysis of the deposited data

Results flagged for a closer look

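Receptor RNA was also seen in the 1908 parous barcodes that the cell filter left out and that no comparison uses. They held 208 UMIs of Cxcr3 (171 CPM), 215 of Cxcr6 (177 CPM), 61 of Ccr2 (50.1 CPM) and 124 of Cxcr4 (102 CPM). Of the rare receptors they held 9 UMIs of Ccr8, 9 of Ccr4, 5 of Ccr10 and 8 of Ccr9. Each count is above the limit of 3 that a count of 0 allows. The Cxcr6 level lay close to that of the parous cells used (185 CPM) and the Cxcr4 level above it (76.5 CPM). The 15 left-out virgin barcodes held 0 UMIs of Cxcr3 and Cxcr6 and 1 of Cxcr4.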

How the results depend on the processing

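Each library was alone in its group, so no replicate could be left out. No paired analysis was possible because each group had 1 library. Of 64 alternative pooled ratios 55 stayed within the counting interval. Median-of-ratios scaling, a shift of 0.13, gave log2 ratios of -0.31 for Cxcr3, 0.37 for Cxcr6, -0.45 for Ccr2 and -0.57 for Cxcr4, so Cxcr4 was no longer 1.5-fold apart. Without clusters 4 and 6 they were -0.15 for Cxcr6, -0.41 for Ccr2 and -0.55 for Cxcr4. Ccr10 reached 0.89 without its 5 top cells, and Ccr8 0.04 with equal weight for every cell. An alternative without cluster 10, added after seeing the data, moved none of the 8. Share folds that moved were Cxcr6 at 1.13 (1000 UMIs) and 0.976 (no thinning), Ccr2 at 0.762 (2500 UMIs), Cxcr4 at 0.507 and Ccr8 at 0.560 (no thinning), and Ccr4 at 4.91 in the reported thinning, 1.37 at 2500 UMIs, 1.60 expected over all thinnings and, turned round, 0.743 without thinning. Of 32 standardised ratios 1 moved, Cxcr6 to -0.46 at resolution 0.5. The share of UMIs in the cluster that holds most followed the clustering, and so did the cluster itself. For virgin Cxcr6 it became the cycling cluster at resolution 1.2, which held 0.789% of the cells of cluster 1. For parous Cxcr6 it became a tissue-resident memory-like cluster at resolution 0.5 and with receptor genes kept. For parous Ccr8 it stayed tissue-resident memory-like but held 0.649% (resolution 1.2) and 1.30% (receptor genes kept) of the cells of cluster 5. At resolution 0.5 it was 43.5% (parous) and 53.2% (virgin) for Cxcr3, 35.4% and 38.6% for Cxcr6, 63.3% and 58.3% for Ccr2, 37.4% for parous Cxcr4 and 45.5% for parous Ccr4. At resolution 1.2 it was 37.7% for parous Ccr2 and, in virgin cells, 21.8% for Cxcr3, 20.7% for Cxcr6, 28.3% for Ccr2, 27.8% for Cxcr4 and 78.6% for Ccr9. With receptor genes kept in the clustering it was 35.6% for parous Cxcr6 and, in virgin cells, 25.7% for Cxcr3, 20.7% for Cxcr6 and 31.9% for Ccr2. Depth limits the rare receptors most, since 1400 UMIs left 17 parous and 3 virgin Ccr4-positive cells.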
